A study of Mus musculus with 10 samples.

Results

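The 10 genes described here are imprinted genes that control growth: H19, Meg3, Peg3, Plagl1, Cdkn1c, Grb10, Dlk1, Mest, Snrpn and Ndn. They were chosen by name, and each matched 1 row of the 55487 genes in a table of read counts from 10 mouse ovaries. The Control group held 4 ovaries of C57BL/6J mice aged 8 weeks. The Aged group held 3 ovaries and the Aged+CF group 3 ovaries of C57BL/6J mice whose age the labels give as 11 months and the study's methods as 10 months. Aged+CF mice received 200 μL of CEFFE, a cell-free extract of human fat, at 3 μg/μL through the tail vein every 2 days for 2 weeks, and per the study's methods the other mice received saline. Mice of all 3 groups were injected with 10 IU of PMSG, a gonadotropin that drives follicle growth, 48 h before the ovaries were taken. Ovaries are called here by group and by the number in their label (Aged 34). The study compared young with aged ovaries, and treated with untreated aged ovaries.

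An imprinted gene is read from the copy inherited from only one parent, according to methylation set down in the egg or the sperm. Many genes read from the paternal copy promote growth of the fetus and placenta, and many read from the maternal copy restrain it. Much of this set is known as a connected group that is highly active before birth, falls after it and can be raised by the zinc finger factor Plagl1. The mice were inbred and the counts do not separate the parental copies, so the values are total levels of each gene and not a measure of imprinting.

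All 10 genes passed the filter on low counts that 18956 genes passed. Libraries held 15761789 to 21318254 counted reads, and the 10 genes together took 0.055% to 0.0585% of them in Control ovaries, 0.0233% to 0.0482% in Aged ovaries and 0.0354% to 0.0432% in Aged+CF ovaries. Levels are CPM, counts scaled to a library of 1000000 reads, after scaling between libraries, and a gene was called changed at a fold of at least 1.5 and an adjusted p under 0.05 in edgeR's quasi-likelihood test over all genes. Nothing in the labels says more about the replicates than 1 ovary each, so p-values measure the spread between these ovaries. Aged ovaries varied more than the others, with a biological coefficient of variation of 0.377 against 0.209 in Control and 0.193 in Aged+CF ovaries. Markers of the ovary's cell types also differed: the summed CPM of 15 oocyte markers was 477 to 660 in Control, 15.6 to 134 in Aged and 180 to 285 in Aged+CF ovaries, and that of 9 luteal markers was 7030 to 13000, 16900 to 40900 and 15300 to 24400. Aged 34 had the lowest oocyte sum and the highest sum of 8 immune markers, 488 against 162 and 202 in the other Aged ovaries. Its sum of 8 oviduct markers was 339, against 15.8 and 25.9 in those ovaries. Aged 33 had the highest luteal sum, and its sum over 13 theca and stroma markers was the lowest of all ovaries, 2402 against 3891 or more elsewhere. In bulk tissue, fewer cells of a type and less RNA per cell cannot be told apart.

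Of the 10 genes, 3 carry microRNA genes, and the sequences below show what lies inside them, with the seed (bases 2 to 8) in capitals. The maternally expressed RNA H19 (chromosome 7, 142575529 to 142578143, minus strand, GRCm38) holds Mir675 in an exon. Meg3 (chromosome 12, 109541001 to 109571726, plus strand) holds Mir1906-1 and Mir770 in exons, and Mest (chromosome 6, 30723547 to 30748465, plus strand) holds Mir335 in an intron. Sequences are RefSeq's, and each of the seeds differs from the others.
mmu-miR-675-5p: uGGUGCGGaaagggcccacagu
mmu-miR-675-3p: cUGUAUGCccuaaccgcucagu
mmu-miR-1906: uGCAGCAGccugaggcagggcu
mmu-miR-770-5p: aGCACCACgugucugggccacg
mmu-miR-770-3p: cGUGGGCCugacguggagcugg
mmu-miR-335-5p: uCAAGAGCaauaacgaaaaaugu
mmu-miR-335-3p: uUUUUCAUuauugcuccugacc
The table lists Mir675 and Mir1906-1 at a count of 1 in every ovary, Mir770 at 0 or 1 and Mir335 at 0, so the levels of H19, Meg3 and Mest below say nothing of these microRNAs. A count of exactly 1 in all 10 ovaries stands beside 308 genes of the table, 148 of them named as microRNA genes, and was not read as a measured level.

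Plagl1 lies on the plus strand of chromosome 10, 13060504 to 13131694. Its RefSeq promoter window (GRCm38.p6, chr10:13090582-13090881, plus strand) runs from 250 bases before to 50 after a start that lies inside that span. GENCODE M21 lists 25 transcripts of the gene, and no window was given for any other start. The window holds 26 CpG dinucleotides, and 84.5% of 32851 such windows, whose median is 7, hold 26 or fewer. It is shown because Plagl1 had the clearest change of the 10 genes, with the hexamer TGCCGC, read on either strand, in capitals. This hexamer is known as the core of the site of ZFP57, which holds methylation at imprinted regions.
Plagl1: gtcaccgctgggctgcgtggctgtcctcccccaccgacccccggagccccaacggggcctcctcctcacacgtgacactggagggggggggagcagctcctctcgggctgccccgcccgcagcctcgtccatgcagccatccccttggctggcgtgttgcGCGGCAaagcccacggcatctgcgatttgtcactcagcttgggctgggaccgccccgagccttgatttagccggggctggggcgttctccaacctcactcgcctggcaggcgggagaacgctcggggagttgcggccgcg
Windows were given for 8 of the 10 genes, and 5 of the 8 (Plagl1, Grb10, Meg3, Mest and Snrpn) had the hexamer in at least 1 window, while 11.6% of all windows hold it. The genes had 15 windows among them, so a gene with several had more chances. These matches describe letters and not binding or methylation, neither of which was measured.

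In Control ovaries, the level per kilobase of exon was highest for Plagl1, at 17.4 ± 1.30 CPM per kilobase (SD, n = 4). Ndn (12.6 ± 1.10), Grb10 (11.3 ± 1.11), Meg3 (8.78 ± 0.99), Snrpn (7.96 ± 0.894), Cdkn1c (6.52 ± 1.0), H19 (5.26 ± 0.545) and Mest (4.50 ± 0.576) followed in that order, and the ranges of each neighboring pair among them overlapped. Peg3 (3.20 ± 0.49) and Dlk1 (0.461 ± 0.161) were lower, with no overlap with the gene before them. In Aged ovaries the first place went to Cdkn1c, at 16.4 ± 10.8 CPM per kilobase (SD, n = 3), whose range of 8.69 to 28.7 overlapped with that of Grb10 (7.84 to 12.7). In Aged+CF ovaries Plagl1 stood first at 11.1 ± 0.73 and overlapped with Grb10 at 10.46 ± 0.873. These levels use the exon length of GENCODE M21, because the length behind the table's FPKM values was longer than the whole gene for H19 (8060 bases against 2615), Cdkn1c (5185 against 2712) and Dlk1 (16789 against 10514).

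**Figure D1:**
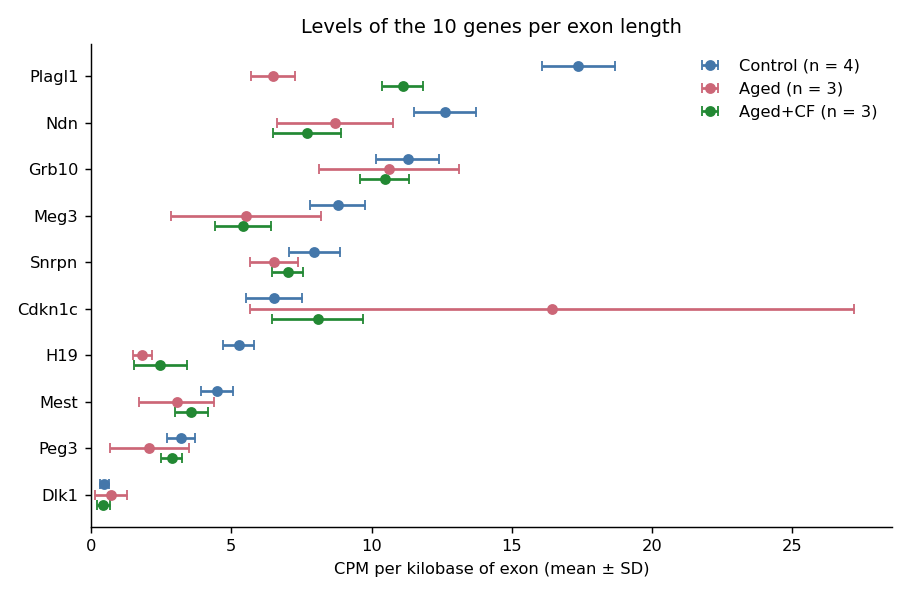
Mean level of each of the 10 genes per kilobase of exon (horizontal axis, CPM per kilobase from 0; bars are SD) in Control (n = 4), Aged (n = 3) and Aged+CF (n = 3) ovaries. Plagl1 is first in Control ovaries at 17.4, and Cdkn1c has the widest bar, around 16.4 in Aged ovaries.

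Between Aged and Control ovaries, H19 and Plagl1 fell and Cdkn1c rose, and the other 7 genes were not called. Of all genes tested, 11.1% were called (6.06% lower), against 3 of the 10 (2 lower). The median log2 fold change of the 10 genes was -0.55, against 0.00 over all genes, and 8 of the 10 values were negative. In 4 of the 10 (H19, Plagl1, Cdkn1c and Ndn) the Aged and Control ovaries did not overlap, which held for 27.5% of all genes.

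Plagl1 codes for a paternally expressed zinc finger factor that slows cell division and acts on other imprinted genes. Its level was 129, 150.5, 129.6 and 134 CPM in the Control ovaries, 56.0, 52.2 and 43.9 CPM in the Aged ovaries, and 84.6, 82.6 and 93.3 CPM in the Aged+CF ovaries. The 3 groups were fully apart, and the treated ovaries lay between the other groups. Plagl1 was 2.68-fold lower in Aged than in Control ovaries (log2 fold change -1.42, SE 0.108, edgeR adjusted p = 0.000803), the third lowest p of all genes tested. The 3 Aged ovaries differed among themselves by at most 1.27-fold in Plagl1, and their oocyte, luteal and stromal sums lay far apart. Plagl1 was lower in groups with lower oocyte sums, and within every group it ranked the ovaries in the order of the oocyte sum. With ovaries listed as above, that sum was 476.6, 660.4, 507.7 and 645.4 CPM in Control ovaries. It was 134.2, 117.1 and 15.6 CPM in Aged and 212.6, 179.9 and 285.4 CPM in Aged+CF ovaries. Aged 34, with the lowest oocyte sum, had the lowest Plagl1. The part of oocyte number in this was not tested. Without Aged 34 the log2 fold change was -1.29 (edgeR adjusted p = 0.000943).

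H19 is a maternally expressed noncoding RNA of the Igf2 region that restrains growth. It stood at 13.7, 12.0, 14.5 and 11.6 CPM in the Control ovaries, 4.65, 5.22 and 3.64 CPM in the Aged ovaries, and 5.33, 4.19 and 8.72 CPM in the Aged+CF ovaries. All ovaries of mice aged 11 months were below all Control ovaries, and among them the treated and untreated ones overlapped. H19 was 2.88-fold lower in Aged than in Control ovaries (log2 fold change -1.52, SE 0.256, edgeR adjusted p = 0.00764). Its neighbor Igf2, the paternally expressed growth factor with which H19 shares enhancers, did not pass the test: 15.6 ± 1.40 CPM in Control (SD, n = 4) and 17.4 ± 3.07 CPM in Aged ovaries (SD, n = 3), with a log2 fold change of 0.16 and a 95% interval of -0.18 to 0.49.

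Cdkn1c codes for p57, a maternally expressed inhibitor of the kinases that drive the cell cycle. Its level was 15.1, 14.9, 10.9 and 12.4 CPM in the Control ovaries, 24.2, 17.7 and 58.6 CPM in the Aged ovaries, and 19.2, 12.8 and 17.4 CPM in the Aged+CF ovaries. Every Aged ovary was above every Control ovary, and Aged 34 was the highest of all ovaries. Cdkn1c was 2.52-fold higher in Aged than in Control ovaries (log2 fold change 1.33, SE 0.354, edgeR adjusted p = 0.0326). Aged 34 had the highest immune, stromal, smooth muscle, epithelial and adipocyte sums of all ovaries. Without this ovary the log2 fold change was 0.69 (edgeR adjusted p = 0.0382). The call was lost when Control 31, 32, 33 or 34 was left out in turn, with edgeR adjusted p of 0.058, 0.0703, 0.0777 and 0.0831. An antisense gene, Gm44732, shares 625 exon bases with Cdkn1c but holds 0 to 5 reads per ovary.

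Meg3, a maternally expressed noncoding RNA that restrains cell growth, was spread widely in the Aged ovaries. Its level was 146, 185, 156 and 149 CPM in the Control ovaries, 89.2, 57.9 and 152 CPM in the Aged ovaries, and 112, 77.3 and 104 CPM in the Aged+CF ovaries. Aged 34 lay within the Control range and the other Aged ovaries below it, while all treated ovaries were below it. The log2 fold change between Aged and Control ovaries was -0.67 (SE 0.277, edgeR adjusted p = 0.129). It passed the looser rule of a fold of at least 1.5 and an unadjusted p under 0.05 from the same fit. With the 3 genes above, 4 of the 10 passed that rule, against 18.2% of all genes. Without Aged 34 it was -1.07 (edgeR adjusted p = 0.0076). Rian, a noncoding RNA of the same cluster, had a log2 fold change of -0.41 (edgeR adjusted p = 0.25).

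Ndn, a paternally expressed gene whose protein necdin holds cells out of division, stood at 42.6, 47.7, 44.1 and 51.7 CPM in the Control ovaries, 34.6, 23.5 and 38.3 CPM in the Aged ovaries, and 30.1, 23.4 and 31.8 CPM in the Aged+CF ovaries. No ovary of the aged mice reached the Control range. The log2 fold change between Aged and Control ovaries, -0.53 (SE 0.174, edgeR adjusted p = 0.0643), missed both the required fold and the adjusted threshold. Without Aged 34 it was -0.64 (edgeR adjusted p = 0.0311), which passed. Mkrn3, which lies near Ndn in the Prader-Willi region, gave a log2 fold change of -0.06 with a 95% interval of -0.48 to 0.35.

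Snrpn, which codes for a splicing protein in the same region, ranged from 14.8 to 19.4 CPM in Control, 12.6 to 16.2 in Aged and 13.8 to 16.1 in Aged+CF ovaries. The groups overlapped, and the log2 fold change between Aged and Control ovaries was -0.29 (95% interval -0.60 to 0.02). Snrpn shares 589 exon bases of the same strand with Gm38393, which holds 32 to 87 reads per ovary against 225 to 344 for Snrpn, so how reads were split between them bears on these values. Snurf, whose exons lie wholly within this locus, is among the genes listed at 1 in every ovary.

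Peg3, a paternally expressed zinc finger gene linked to growth and maternal behavior, stood at 43.4, 35.2, 40.9 and 51.1 CPM in the Control ovaries, 30.5, 7.69 and 44.7 CPM in the Aged ovaries, and 43.3, 38.1 and 33.2 CPM in the Aged+CF ovaries. One ovary, Aged 33, was far below the rest, and the Aged ovaries differed by 5.82-fold. The log2 fold change between Aged and Control ovaries of -0.62 (95% interval -1.59 to 0.34) was not called, and it was -0.16 without Aged 33 and -1.12 without Aged 34. Dlk1, which codes for a membrane protein that blocks fat cell differentiation, was the least abundant of the genes, with 15 to 134 reads per ovary. It ranged from 1.88 to 3.82 CPM in Control, 1.06 to 7.39 in Aged and 1.09 to 3.73 in Aged+CF ovaries, a 6.98-fold spread among the Aged ovaries. Its log2 fold change of 0.63 (95% interval -0.67 to 1.93) could not be told from 0 at this spread, and without Aged 34 it was -0.12.

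Mest, a paternally expressed gene for an enzyme of the hydrolase family, stood at 20.02, 16.1, 15.5 and 19.4 CPM in the Control ovaries, 14.3, 15.7 and 6.01 CPM in the Aged ovaries, and 16.1, 11.6 and 14.6 CPM in the Aged+CF ovaries. Here Aged 34 was the low ovary, unlike for Meg3, Peg3 and Dlk1. The log2 fold change between Aged and Control ovaries was -0.57 (95% interval -1.21 to 0.08). Mest shares 912 exon bases on the opposite strand with Copg2, which held 1016 to 1425 reads per ovary against 109 to 365 for Mest, and whether the counting used strand is not given in the sources used here. Grb10, an adaptor that dampens insulin and IGF signaling, differed least between Aged and Control ovaries: it ranged from 92.3 to 112 CPM in Control, 71.3 to 115 in Aged and 87.4 to 103 in Aged+CF ovaries. Its log2 fold change between Aged and Control ovaries was -0.09, and the 95% interval of -0.43 to 0.26 holds no change as large as 1.5-fold.

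**Figure D2:**
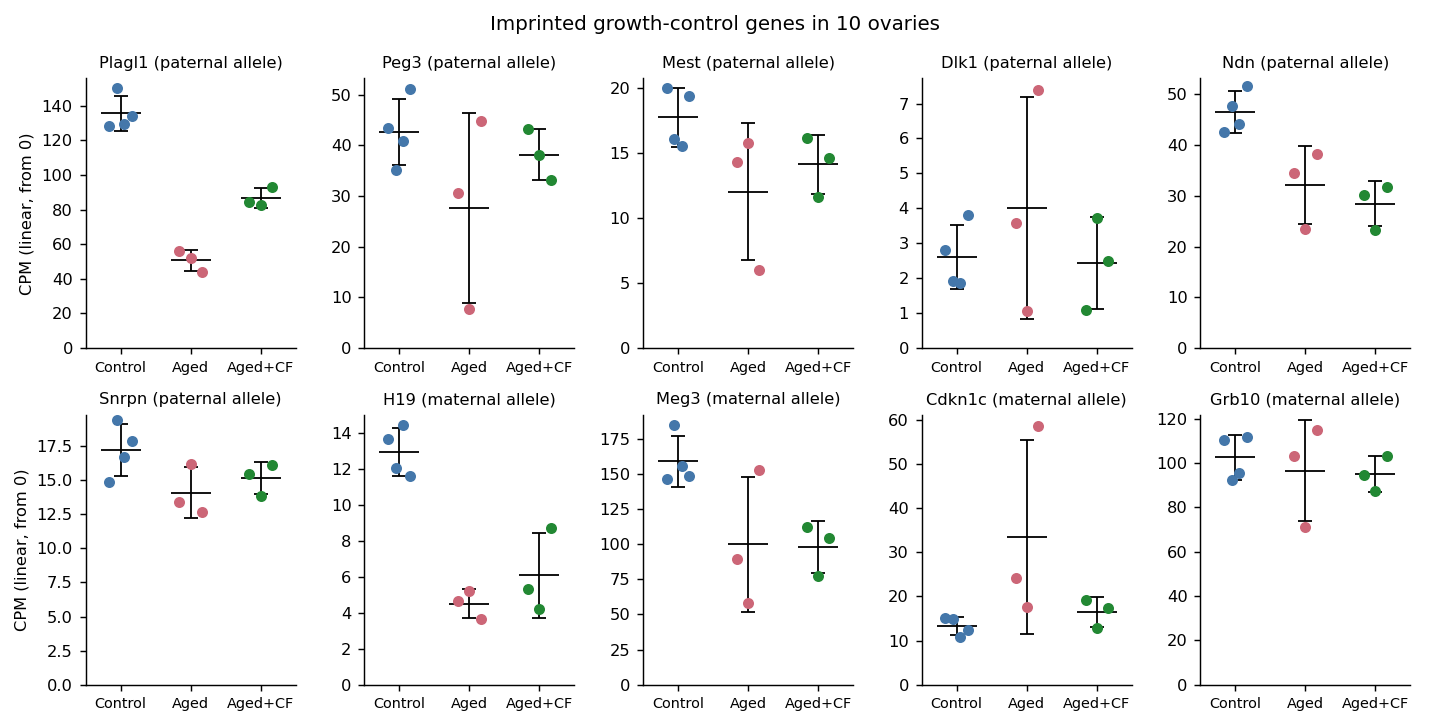
Level of each gene in each ovary (vertical axis, CPM from 0; points are ovaries; bars are mean ± SD) in Control (n = 4), Aged (n = 3) and Aged+CF (n = 3) ovaries; the parental copy named is the one known to be read and was not measured. Plagl1 separates the 3 groups, at 129 to 150.5, 43.9 to 56.0 and 82.6 to 93.3 CPM, while Cdkn1c at 58.6 CPM in Aged 34 and Peg3 at 7.69 CPM in Aged 33 stand apart from the other Aged ovaries.

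The Aged ovaries did not move as one for most of the genes. Meg3, Ndn, Peg3, Grb10 and Dlk1 were each lowest in Aged 33 and highest in Aged 34. The theca and stroma sum had the same order (2402 in Aged 33, 3891 in Aged 31 and 6531 in Aged 34). So had the epithelial and immune sums, while the luteal, granulosa and endothelial sums ran in the reverse order. Peg3 was 2.47 lower on the log2 scale in Aged 33 than the Control mean and 0.07 higher in Aged 34, and Meg3 was 1.46 and 0.06 lower. The stromal sum of Aged 34 was above that of every Control ovary (4660 to 5147). In Aged+CF ovaries the stromal sum was 4487 to 5507. Peg3 overlapped with Control there, while Meg3, at 77.3 to 112 CPM, was below every Control ovary. The part of stromal content in the values of both genes was not tested. Cdkn1c also had its lowest Aged value in Aged 33 and its highest in Aged 34. Mest, Snrpn, H19 and Plagl1 had their lowest Aged value in Aged 34, whose oocyte and granulosa sums were the lowest of the Aged ovaries (15.6 and 4255 CPM).

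**Figure D3:**
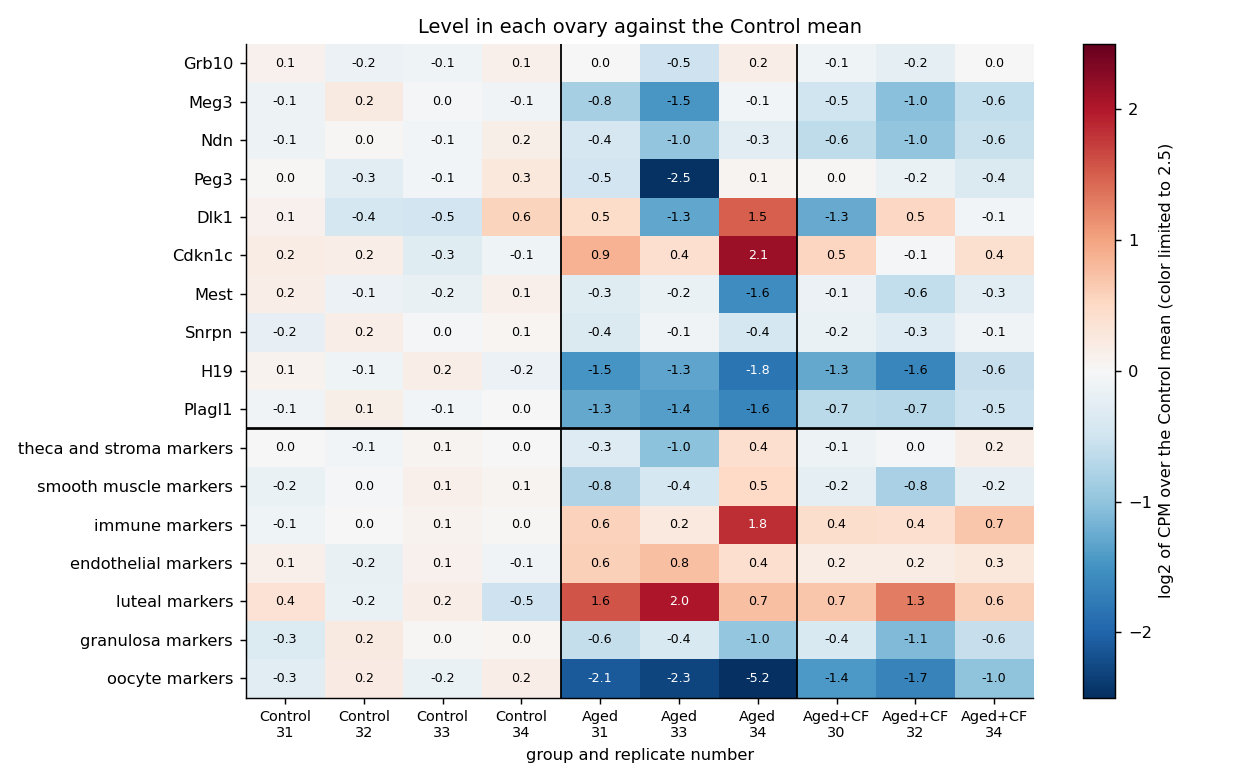
Each of the 10 genes and 7 summed marker lists (rows) in each ovary (columns), as log2 of CPM over the Control mean, with the color limited to 2.5. H19 and Plagl1 are low in all Aged ovaries (-1.83 to -1.31 and -1.63 to -1.28), whereas Peg3 runs from -2.47 in Aged 33 to 0.07 in Aged 34. The theca and stroma markers (-1.03 to 0.42) and the immune markers (0.25 to 1.84) have the same order in the Aged ovaries.

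Between Aged+CF and Aged ovaries, none of the 10 genes was called at an adjusted p (edgeR's quasi-likelihood test), as 0.00528% of all genes were, a single gene. DESeq2's Wald test called 1 (Plagl1), among 442 genes in all. At an unadjusted p, 2 of the 10 passed, Plagl1 higher and Cdkn1c lower, against 7.96% of all genes. The median log2 fold change was 0.04, against -0.02 over all genes. This comparison shares the Aged ovaries with the one before it, so an ovary that is high or low among them moves both, in opposite directions.

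Plagl1 was 1.71-fold higher in Aged+CF than in Aged ovaries (log2 fold change 0.78, 95% interval 0.53 to 1.03, edgeR adjusted p = 0.115), the sixth lowest p of all genes tested. It was the only one of the 10 whose treated and untreated ovaries did not overlap, against 18.6% of all genes. Without Aged 34 the log2 fold change was 0.67 with an edgeR adjusted p of 0.0217. Treated ovaries had 2.03-fold less Cdkn1c than untreated aged ones (log2 fold change -1.02, 95% interval -1.88 to -0.17, edgeR adjusted p = 0.243). This rested on Aged 34, without which the log2 fold change was -0.36 (edgeR adjusted p = 0.341) and missed the unadjusted threshold. The interval for H19 was -0.15 to 1.03 around a log2 fold change of 0.44, and without Aged+CF 34, the highest of the treated ovaries, the value was 0.07. Meg3 (-0.03, 95% interval -0.68 to 0.62), Grb10 (-0.02, -0.39 to 0.35) and Ndn (-0.18, -0.59 to 0.23) had log2 fold changes near 0, and those of Peg3 (0.46, -0.56 to 1.48) and Dlk1 (-0.73, -2.13 to 0.68) had wide intervals. Without Aged 33 the value for Peg3 was 0.025, and without Aged 34 it was 0.98 for Peg3 and 0.044 for Dlk1.

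Between Aged+CF and Control ovaries, none of the 10 genes was called at an adjusted p by edgeR's quasi-likelihood test, as 0.179% of all genes were, while DESeq2's Wald test called 3 (H19, Plagl1 and Ndn), among 528 genes in all. At an unadjusted p, 4 were lower in the treated ovaries and none higher: H19, Meg3, Plagl1 and Ndn, against 4.36% of all genes lower. The same 4 genes did not overlap between the groups, against 21.9% of all genes. The log2 fold change was -1.09 for H19 (SE 0.249, edgeR adjusted p = 0.118), -0.70 for Meg3 (SE 0.277, edgeR adjusted p = 0.302) and -0.71 for Ndn (SE 0.175, edgeR adjusted p = 0.132). For Plagl1 it was -0.65 (SE 0.105, edgeR adjusted p = 0.0561). Cdkn1c, called in Aged ovaries, stood at 0.31 here with a 95% interval of -0.49 to 1.11.

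**Figure D4:**
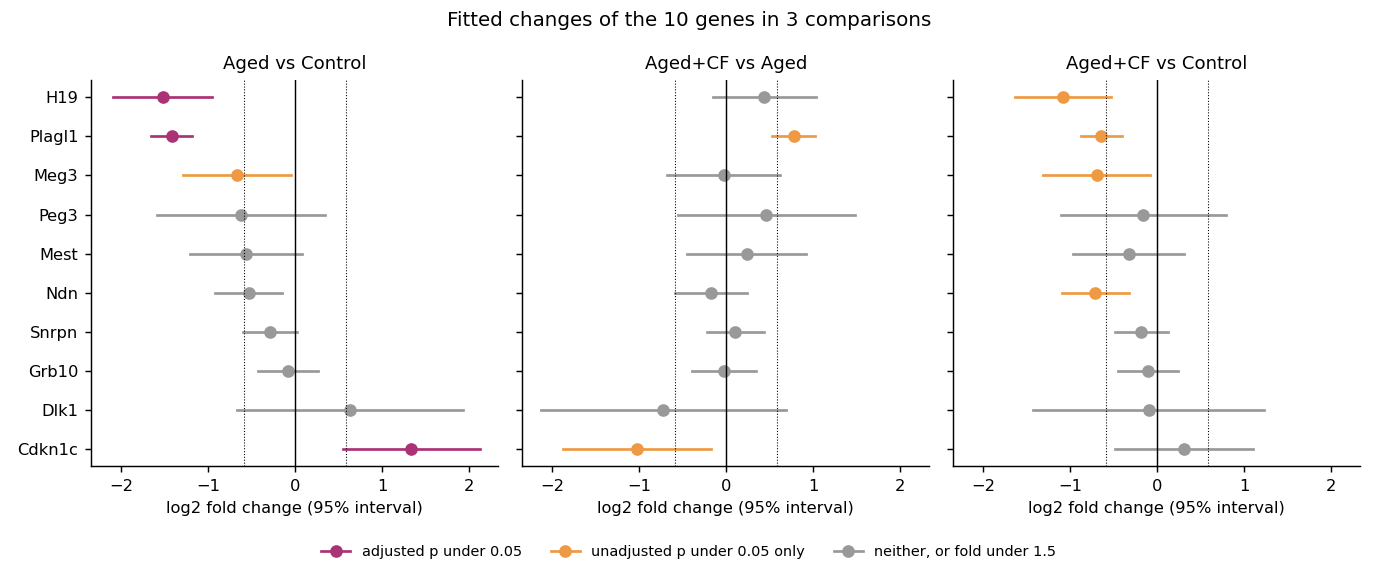
Log2 fold change (horizontal axis) with its 95% interval for each gene in the 3 comparisons, with dotted lines at a fold of 1.5. Colors mark a fold of at least 1.5 with an adjusted p under 0.05, the same fold with only an unadjusted p under 0.05, or any other result. Plagl1 has the narrowest intervals, at -1.42, 0.78 and -0.65, and Dlk1 the widest.

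Other imprinted genes gave a mixed picture, and most were not called. Apart from the 10, 21 genes listed as paternally expressed were tested between Aged and Control ovaries. Of these, 1 rose and 2 fell, beside 11.1% of all genes called, with a median log2 fold change of -0.08. Peg10, a retrotransposon-derived gene needed in the placenta, fell from 213 ± 35.2 CPM in Control (SD, n = 4) to 70.2 ± 33.9 CPM in Aged ovaries (SD, n = 3; log2 fold change -1.60, edgeR adjusted p = 0.0126). Nnat, a small membrane protein gene, fell (log2 fold change -1.83, edgeR adjusted p = 0.0241), and Zrsr1, a splicing factor gene, rose (log2 fold change 0.62, edgeR adjusted p = 0.04). Of 28 other genes listed as maternally expressed and tested, 1 rose and 3 fell, beside the same 11.1%, with a median log2 fold change of 0.00. Which copy is read in the ovary was not measured for the genes of either list. Cd81, a tetraspanin of many cell surfaces, rose by 0.70 on the log2 scale (edgeR adjusted p = 0.00506). Osbpl5 (-0.70), Asb4 (-2.04) and Cobl (-0.62) fell, with edgeR adjusted p of 0.00448, 0.0112 and 0.0397, and Cobl lies next to Grb10 on chromosome 11.

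Between Aged+CF and Aged ovaries no further imprinted gene passed at an adjusted p in edgeR. At an unadjusted p, where 7.96% of all genes passed, Peg10 was higher (log2 fold change 0.78, edgeR adjusted p = 0.282). Cd81 (-0.60), Kcnq1 (-0.88) and Mirg (-0.82) were lower by the same rule. Igf2, the neighbor of H19, had a log2 fold change of -0.41, and Igf2r on chromosome 17, the imprinted receptor gene whose product clears IGF2, one of 0.34, both under the required fold. Kcnq1ot1, the noncoding RNA of the cluster that holds Cdkn1c, had one of 0.46 (95% interval -0.10 to 1.02). Phlda2, Rtl1, Usp29 and Magel2 had at most 5, 12, 18 and 2 reads in any ovary and were not tested.

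Of 18 genes tested that set or keep imprints, 6 fell and none rose at an adjusted p between Aged and Control ovaries, and all 18 values were negative, with a median log2 fold change of -0.54, beside 6.06% of all genes called lower and an overall median of 0.00. Uhrf1 (-2.08, edgeR adjusted p = 0.00547) and Dnmt1 (-1.17, edgeR adjusted p = 0.00496), which copy methylation at replication, fell, as did Tet1 (-0.63, edgeR adjusted p = 0.0334), which oxidizes it. Dnmt3l, Dppa3 and Nlrp2, which are used mainly in oocytes, fell too (log2 fold changes -1.62, -2.37 and -3.09, edgeR adjusted p = 0.00656, 0.0393 and 0.0217). All 15 oocyte markers, Dppa3 among them, were also negative, 13 of them called, with a median log2 fold change of -2.53, and their part in these values was not tested. Trim28, the partner of ZFP57, was below the required fold (log2 fold change -0.57, edgeR adjusted p = 0.00699). In treated against untreated aged ovaries 17 of the 18 values were positive with a median log2 fold change of 0.24. None passed at an adjusted p in edgeR, while 4 passed at an unadjusted p, beside 7.96% of all genes. The oocyte markers were positive there in 15 of 15, with a median log2 fold change of 1.22, and the overall median was -0.02.

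The IGF pathway and the other cell cycle inhibitors frame Igf2, Grb10 and Cdkn1c. Of 15 IGF genes tested between Aged and Control ovaries, 3 fell and 1 rose, beside 11.1% of all genes called. Igf1, the growth factor made by granulosa cells, fell from 95.9 ± 7.0 CPM (SD, n = 4) to 56.3 ± 12.6 CPM (SD, n = 3; log2 fold change -0.77, edgeR adjusted p = 0.00993). Irs2, an adaptor of the receptor, and Igf2bp2, an RNA-binding protein, fell by 0.88 and 1.48 on the log2 scale (edgeR adjusted p = 0.00666 and 0.0103), and Igfbp3, which binds IGFs in plasma, rose by 0.92 (edgeR adjusted p = 0.00805). Of 7 inhibitors of cell cycle kinases, Cdkn1c and Cdkn1b rose, beside the same 11.1% of all genes. Cdkn1b rose by 1.09 on the log2 scale (edgeR adjusted p = 0.03). None of either list passed at an adjusted p between Aged+CF and Aged ovaries in edgeR. At an unadjusted p, 2 genes of each passed, beside 7.96% of all genes, and in each list they went opposite ways. Irs2 was higher in treated ovaries (log2 fold change 0.68) and Igfbp3 lower (-0.89). Among the inhibitors, Cdkn1a was higher (1.45, edgeR adjusted p = 0.159) and Cdkn1c lower (-1.02), while Cdkn1b did not pass (-0.45).

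The genes whose levels ran most like each of the 10 across all 10 ovaries were listed from 13120 genes of at least 5 CPM, by Pearson's correlation of log2 CPM. These are descriptions over ovaries that differ by group, and the differences between groups enter each value. Plagl1 ran closest to BC055324 (0.992) and Tubg2 (0.989), and H19 to Nup93 (0.954) and Cpsf4l (0.951). Peg3 ran closest to Lepr, the leptin receptor gene (0.987), and Mical2 (0.981), and Meg3 to Ttll3 (0.976) and Mcph1 (0.971). Cdkn1c ran closest to Cd37, a tetraspanin gene of leukocytes (0.946), and Kcnk6 (0.945). Spearman's rank correlation was lower for these pairs of Peg3 (0.806 and 0.77) and Cdkn1c (0.818 and 0.733). For the pairs of Plagl1, H19 and Meg3 it was 1 and 0.976, 0.891 and 0.915, and 0.952 and 0.988. Peg3 and Cdkn1c each had an Aged ovary that stood apart from the others, and its part in the Pearson values was not tested. None of the 10 genes was among the closest 2 of another, and Dlk1, under 5 CPM, could not be listed. Between pairs of the 10, Pearson's correlation was highest for Meg3 with Ndn (0.906) and H19 with Plagl1 (0.896). It was lowest for Cdkn1c with Mest (-0.806).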

How the data were processed

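Gene-level counts and FPKM values of 10 ovaries were used, as the authors deposited them. The submitters' notes name GRCm38.p4, TopHat and Cufflinks 2.1.1; the counting tool and its use of strand are not given in the sources used here. The deposited FPKM equal count over length over library total. The 10 genes and all lists were chosen with earlier results of these data known. Counts were fitted with edgeR 4.0 over all 10 ovaries, with 3 group means, TMM scaling and its default filter (18956 genes), and CPM use the TMM library sizes. Calls need a fold of 1.5 and a Benjamini-Hochberg adjusted p under 0.05, and a second rule uses the unadjusted p. Alternatives were other scalings, no filter, DESeq2 1.42, limma 3.58 on log2(FPKM + 0.1) and log2(FPKM + 1), a replicate block and leaving out each ovary. The fit was run on simulated counts for Aged against Control, where it recovered 87.5% of 200 changed genes and called 4 unchanged ones. All groups had the same spread there, so the run does not test the wider spread of Aged ovaries. Other genes named are cluster partners, the list genes called with the lowest p, and the closest 2 by correlation. Positions and exon lengths are from GENCODE M21 and sequences from RefSeq. No 2 ovaries of a group agreed within sampling noise.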

Additional observations from a re-analysis of the deposited data

Results flagged for a closer look

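In Control 33 the summed CPM of 8 oviduct markers was 425.0, against 25.4 to 32.2 in the other Control ovaries, a gap of 0.983 of the group's range (Dixon's criterion for 4 samples). It was the only one of 20 sets of Control values so marked, and about 1 in 20 would be by chance. Without this ovary the 2 genes called between Aged and Control ovaries were H19 and Plagl1.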

How the results depend on the processing

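Between Aged and Control ovaries, Plagl1 was called under all 18 alternatives and H19 under 17; the exception was the replicate block, under which 1 of the 10 genes (Plagl1) was called and H19 had an edgeR adjusted p of 0.0605. The block called 80 genes in all against 2096, and its numbers are those in the labels, which name different mice: the correlations of same-numbered deviations were 0.165, -0.169 and 0.108 between Control and Aged, -0.118 and 0.187 between Control and Aged+CF, and -0.013 between Aged and Aged+CF, so the block is not read as a pairing. The block also turned Cdkn1c to -0.17 (log2, Aged+CF against Control). The call of Cdkn1c between Aged and Control was also lost in a fit of only those groups (adjusted p = 0.0666), under the block (0.0973) and in limma (0.0931 and 0.101). Leaving out 1 ovary gave 2 to 5 called genes, 5 without Aged 34. Between Aged+CF and Aged, DESeq2's Wald test called 1, and leaving out 1 ovary 0 to 1. At an unadjusted p the count was 1 in a fit of only those groups and in both limma fits, and 1 to 2 when 1 ovary was left out. Between Aged+CF and Control the adjusted count was 1 without TMM, 3 in a fit of only those groups, 3 in DESeq2, 1 and 2 in limma (pseudocounts 0.1 and 1), and 0 to 1 when 1 ovary was left out. Some values that were not called changed sign. Between Aged+CF and Aged, Meg3 gave 0.035 without TMM and 0.15 and 0.10 in limma, and Grb10 0.052, 0.095 and 0.083. Leaving out 1 ovary gave -0.30 to 0.40 for Meg3, -0.20 to 0.11 for Grb10, -1.16 to 0.044 for Dlk1 and -0.11 to 0.47 for Mest there; -0.20 to 0.12 for Grb10 and -0.12 to 1.09 for Dlk1 between Aged and Control; and -0.54 to 0.28 for Dlk1 between Aged+CF and Control. Without TMM the median of all genes between Aged and Control was -0.13, and Plagl1, H19 and Cdkn1c were still called. The cause of these differences was not tested.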
